A study of Mus musculus with 4 samples.

Results

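The 5 genes described here are Thbs1, Thbs2, Thbs3, Thbs4 and Comp, the members of the mouse thrombospondin family, out of 21885 genes counted in each section. They were chosen by symbol, after their levels in these same sections had been seen to differ between time points and with the share of cardiomyocyte RNA in a spot. Their levels across sections and zones are therefore given as a description with no test, and tests were kept for other contrasts. Those inside the infarct also differed in cardiomyocyte RNA, so they are not fully independent of the choice. RNA was captured on Visium arrays, grids of spots that can each cover several cells, from 10 μm sections of 4 mouse hearts. All mice carried Collagen1a1-GFP+, a green fluorescent reporter of the fibroblast collagen gene Col1a1, and were 8 to 12 weeks old. The control heart was healthy and had no infarct. The infarcted hearts were taken 3 days (3 dpi) or 5 days (5 dpi) after myocardial infarction (MI) made by ligating the left anterior descending coronary artery. There was 1 section from 1 heart for the control, 1 for 3 dpi and 2 for 5 dpi, so the control and 3 dpi have no replicate.

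Thrombospondins are secreted, calcium-binding glycoproteins of the extracellular matrix that tune how cells attach to, build and remodel it rather than bearing load themselves. Thbs1 and Thbs2 form trimers and carry type 1 repeats, through which they bind the receptor Cd36 and restrain angiogenesis, and Thbs1 can also activate latent TGF-beta. Thbs3, Thbs4 and Comp, the cartilage oligomeric matrix protein, form pentamers without type 1 repeats. Comp is best known from cartilage and tendon, where it binds collagens, and Thbs4 is known from tendon, muscle and the stressed heart, where it has been linked to the Atf6 arm of the endoplasmic reticulum stress response.

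The kept spots numbered 1146 (control), 1741 (3 dpi), 1535 and 1423 (5 dpi), with medians of 4967.5 to 6935 UMIs (unique molecular identifiers, 1 for each captured RNA molecule). Mitochondrially encoded genes took 40.1% of UMIs in the control and 13.3% to 21.4% after MI, so levels are given as CPM, the counts scaled to 1e+06 UMIs of all other genes. The tissue label was borne out by 12 cardiomyocyte genes, which summed to 101290 CPM in the control and 19812 to 45259 CPM after MI. The pair of 5 dpi sections, whose labels read female and male, are called 5F and 5M here after those labels. Against them, 4 Y-linked genes gave 704 UMIs in 5F, 1 in 5M and 0 in the control and at 3 dpi. What sets 5F apart from the other sections cannot be told apart from this difference. Section 5M also has 623 spots that hold RNA but carry no tissue mark, and these entered none of the main values. The libraries shared 2228 barcodes, which on these arrays are positions and not cells. The infarct zone (IZ) was made of connected spots with a cardiomyocyte share under 0.5 times the 90th percentile of their section. Around it, up to 2 spot steps away, lay border zone 2 (BZ2), then border zone 1 (BZ1) at 3 to 4 steps and the remote zone (RZ) beyond. The IZ held 882 spots at 3 dpi, 1061 in 5F and 684 in 5M, and none in the control.

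The genes lie on 5 chromosomes of GRCm38, by the annotation used here since the files carry no positions. Thbs1 (ENSMUSG00000040152) is at chr2:118111876-118127133 on the plus strand, Thbs2 (ENSMUSG00000023885) at chr17:14665500-14694235 on the minus strand, Thbs3 (ENSMUSG00000028047) at chr3:89215180-89226837 on the plus strand, Thbs4 (ENSMUSG00000021702) at chr13:92751590-92794818 on the minus strand and Comp (ENSMUSG00000031849) at chr8:70373558-70382066 on the plus strand. The promoters of Thbs2 and Thbs4 are shown because these members followed different genes inside the infarct. Thbs2 was most like collagen genes and Thbs4 most like Cilp and genes such as Myh6, though the 2 members were not opposed to each other. The 2 promoters were not compared further. The promoters are the RefSeq sequences of GRCm38.p6 from 250 bases before to 50 after the RefSeq gene start, which for Thbs2 lies upstream of the start in the annotation used for the gene coordinates, 5′ to 3′ along the gene, at chr17:14694213-14694512 and chr13:92794769-92795068, both on the minus strand, and capitals mark matches to either motif searched.
Thbs2: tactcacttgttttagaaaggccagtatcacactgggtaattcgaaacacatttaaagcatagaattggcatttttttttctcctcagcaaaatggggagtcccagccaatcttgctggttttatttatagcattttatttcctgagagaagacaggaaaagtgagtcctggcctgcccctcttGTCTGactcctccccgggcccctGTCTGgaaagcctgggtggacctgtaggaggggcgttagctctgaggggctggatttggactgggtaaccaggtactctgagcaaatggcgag
Thbs4: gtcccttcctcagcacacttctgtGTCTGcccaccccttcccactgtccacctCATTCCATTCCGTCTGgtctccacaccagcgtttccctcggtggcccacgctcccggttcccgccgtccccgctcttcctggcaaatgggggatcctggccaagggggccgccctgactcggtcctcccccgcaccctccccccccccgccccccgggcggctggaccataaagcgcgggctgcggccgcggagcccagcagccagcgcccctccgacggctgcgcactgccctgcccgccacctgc
The motifs were CAGAC, the core of SMAD sites, read on the other strand as GTCTG, and GGAATG, a TEAD-type site, read as CATTCC. Thbs2 held 2 CAGAC and no GGAATG, and Thbs4 held 2 of each, its GGAATG matches overlapping in 1 base. CAGAC was found in 49.6% of all 32851 promoters of this length and GGAATG in 14.7%. The Thbs4 promoter had 72.0% G and C and that of Thbs2 48.3%, against a median of 52.7% over all promoters. Of the members 3 were in the promoter table; Thbs3 held neither motif.

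In the uninjured heart all 5 genes were low, and together they gave 115 UMIs. Thbs1 was at 2.41 CPM in the control (9 UMIs, 95% Poisson interval 1.10 to 4.57), 111 CPM at 3 dpi, 357 CPM in 5F and 163 CPM in 5M. Thbs2 was at 12.0 CPM in the control (45 UMIs), 65.8 CPM at 3 dpi, 286 CPM in 5F and 161 CPM in 5M. For both trimeric members 5F was the highest of the 4, and the intervals of the 4 sections did not overlap. All such intervals cover counting error only and not the differences between hearts.

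Among the pentameric members, Thbs3 was at 7.22 CPM in the control (27 UMIs), 21.7 CPM at 3 dpi, and 49.2 and 37.4 CPM in 5F and 5M, the narrowest range of the 5 genes. Thbs4 was at 5.88 CPM in the control (22 UMIs), 64.5 CPM at 3 dpi, 176 CPM in 5F and 156 CPM in 5M. Comp was at 3.21 CPM in the control (12 UMIs, interval 1.66 to 5.60) and 5.97 CPM at 3 dpi (50 UMIs, interval 4.43 to 7.87), which overlap, and at 117 CPM in 5F and 130 CPM in 5M. Comp was the member whose 3 dpi interval overlapped that of the control, which is not a test of a difference. Its 5 dpi sections were 19.6 and 21.9 times as high as 3 dpi. The 5 dpi mean was 260 CPM ± 137 (SD, n = 2) for Thbs1, 224 ± 88.0 for Thbs2, 43.3 ± 8.31 for Thbs3, 166 ± 14.1 for Thbs4 and 124 ± 9.34 for Comp.

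At 3 dpi, 4 of the 4 members that passed a minimum of 10 CPM were at least 2-fold above the control, and 28.0% of the 8901 genes that passed it were too; Comp did not pass. Thbs2, Thbs4 and Comp, 3 of the 5 members, were at least 2-fold higher in each 5 dpi section than at 3 dpi, against 1.08% of 9080 genes. The choice of members rests on these same values, so the counts describe the genes and support nothing. In sums over many cells, fewer cells of a type and less RNA per cell cannot be told apart.

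The zones set Thbs1 and Thbs2, highest inside the infarct at each limit tried, apart from Thbs4, whose highest zone depended on where that limit was set. With a higher limit, 2 more genes moved at 3 dpi. Thbs3 was then at 27.0 CPM in BZ2 and 22.0 CPM in IZ, and Comp at 9.19 CPM in BZ1 and 6.77 CPM in IZ. Thbs1 was at 18.1 CPM in RZ, 45.4 in BZ1, 53.3 in BZ2 and 158 CPM in IZ at 3 dpi. In 5F Thbs1 was at 27.5, 80.3, 80.6 and 435 CPM over the same zones, and in 5M at 25.0, 32.1, 73.9 and 257 CPM. Thbs1 thus stood highest in IZ in 3 of 3 sections, at 8.76, 15.9 and 10.3 times its RZ level. Thbs2 was also highest in IZ, with 20.3, 42.3, 41.6 and 88.0 CPM from RZ to IZ at 3 dpi, 40.6, 61.6, 79.2 and 345 CPM in 5F and 17.7, 34.3, 66.1 and 257 CPM in 5M.

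With the zone limit used here, Thbs4 had its highest zone level in BZ2 and not in IZ. At 3 dpi Thbs4 was at 27.9 CPM in RZ, 48.5 in BZ1, 80.0 in BZ2 and 68.9 CPM in IZ, and the intervals of BZ2 and IZ, 65.2 to 97.1 and 61.8 to 76.6, overlapped. At 5 dpi it was at 81.2, 177, 300.5 and 176 CPM in 5F and at 66.1, 128, 309 and 188 CPM in 5M, and in both sections the intervals of BZ2 and IZ did not overlap. The IZ level of Thbs4 was 0.862, 0.584 and 0.609 times its BZ2 level in the 3 sections, whereas that of Thbs1 was 2.97, 5.40 and 3.47 times. With a lower limit on the cardiomyocyte share the IZ level of Thbs4 was 0.519, 0.411 and 0.392 times its BZ2 level, but with a higher limit it was 1.39, 0.864 and 2.01 times, so that Thbs4 was then higher in IZ in the 3 dpi section and in 5M. Measured in spot steps, Thbs4 was highest just inside the border, 1 to 2 steps into the IZ, at 108 CPM at 3 dpi, 408 CPM in 5F and 559 CPM in 5M. At 5 or more steps in, Thbs4 was down to 35.5, 125 and 133 CPM, while Thbs1 was at 235, 508 and 274 CPM, the highest of its 7 distance classes in 3 of 3 sections.

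**Figure D1:**
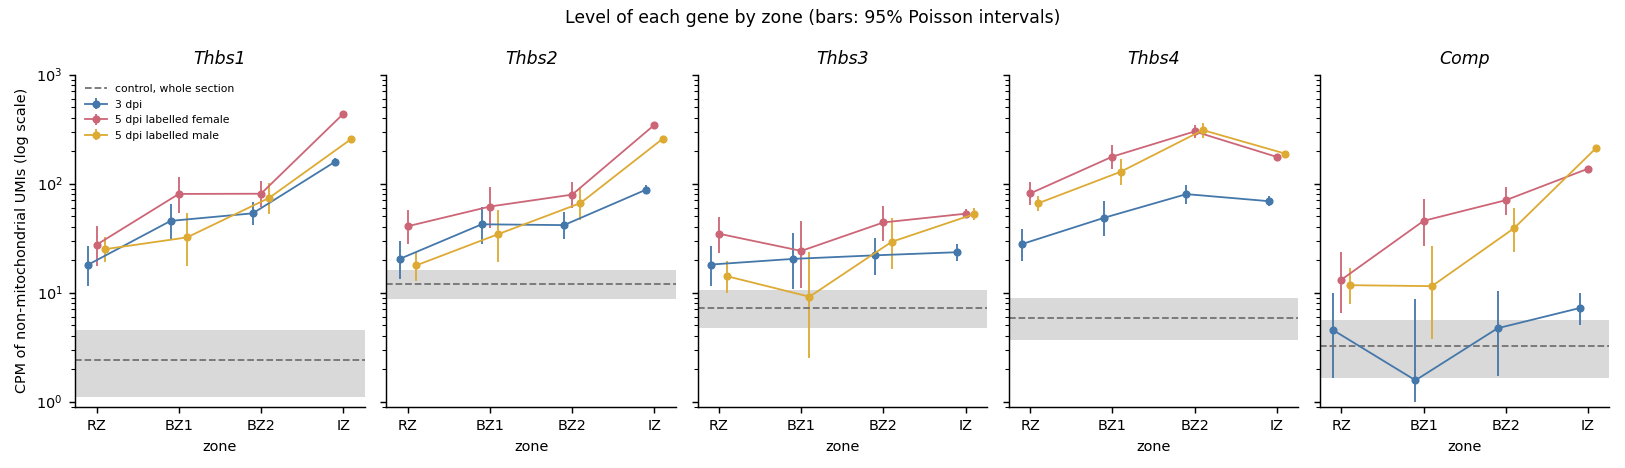
Level of each gene (CPM of non-mitochondrial UMIs, log axis) in the 4 zones of the 3 infarcted sections, with 95% Poisson bars; the dashed line and grey band give the control section and its interval. Thbs1 and Thbs2 were highest in IZ in each section, Thbs4 in BZ2 (in 5F alone with a higher zone limit), and Comp was near the control at 3 dpi and far above it at 5 dpi.

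Thbs3 varied little between zones at 3 dpi, between 18.1 CPM in RZ and 23.4 CPM in IZ with overlapping intervals. At 5 dpi Thbs3 was at 34.6 CPM in RZ and 52.9 in IZ in 5F, and at 14.1 and 52.3 CPM in 5M. The Thbs3 gene overlaps Mtx1, which is also counted and lies on the opposite strand. How the counting treated strand is not given in the sources used here, so reads of the pair may not be fully separated.

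Comp was at 4.52 CPM in RZ and 7.21 CPM in IZ at 3 dpi (6 and 36 UMIs), and the intervals overlapped. At 5 dpi it went from 13.1 CPM in RZ over 45.5 in BZ1 and 70.4 in BZ2 to 137 CPM in IZ in 5F, and from 11.7 over 11.4 and 38.9 to 212 CPM in 5M. Over RZ, the IZ level of Comp was 10.4 and 18.2 times as high at 5 dpi. The 5 dpi IZ levels were 19.0 and 29.5 times that of 3 dpi, against 2.91 and 2.59 times in RZ, where the 3 dpi value rests on the 6 UMIs.

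Thbs1, Thbs2 and Thbs4, 3 of the 5 members, were at least 2-fold higher in IZ than RZ in 3 of 3 sections, as were 14.8% of 9705 genes. The place of Thbs4 in this count depended on the processing. Its mean log2 of IZ over RZ was 1.31, against 0.49 with the lower zone limit and 2.51 with the higher. With the lower limit the members that qualified were Thbs1, Thbs2 and Comp, and with cardiomyocyte genes left out of the denominator they were Thbs1 and Thbs2. For BZ2 over RZ the count was 2 of 5, Thbs1 and Thbs4, against 1.15% of 9373 genes. With the lower zone limit 0 members qualified, since Thbs1 was 1.83 and Thbs4 just under 2 times as high at 3 dpi, and with the higher limit 1 did, Thbs4. In RZ, muscle away from the infarct, Thbs1 was at 7.51, 11.4 and 10.4 times the control level and Thbs4 at 4.74, 13.8 and 11.2 times. They were the 2 of 5 members at least 2-fold above the control in 3 of 3 RZ, against 4.35% of 8581 genes. At 3 dpi this value of Thbs4 depended on the limit, being 1.13 times the control with the higher one, where Thbs1 alone qualified. All 37 UMIs of Thbs4 in that RZ lay 5 to 8 steps from the IZ, and at 9 or more steps it had 0 UMIs (upper bound 6.53 CPM). In IZ, Thbs2, Thbs3, Thbs4 and Comp, 4 of 5, were at least 2-fold higher in each 5 dpi section than at 3 dpi, against 1.6% of 9232 genes, and Thbs1 was 2.75 and 1.62 times as high. These zone values also belong to the choice of members.

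**Figure D2:**
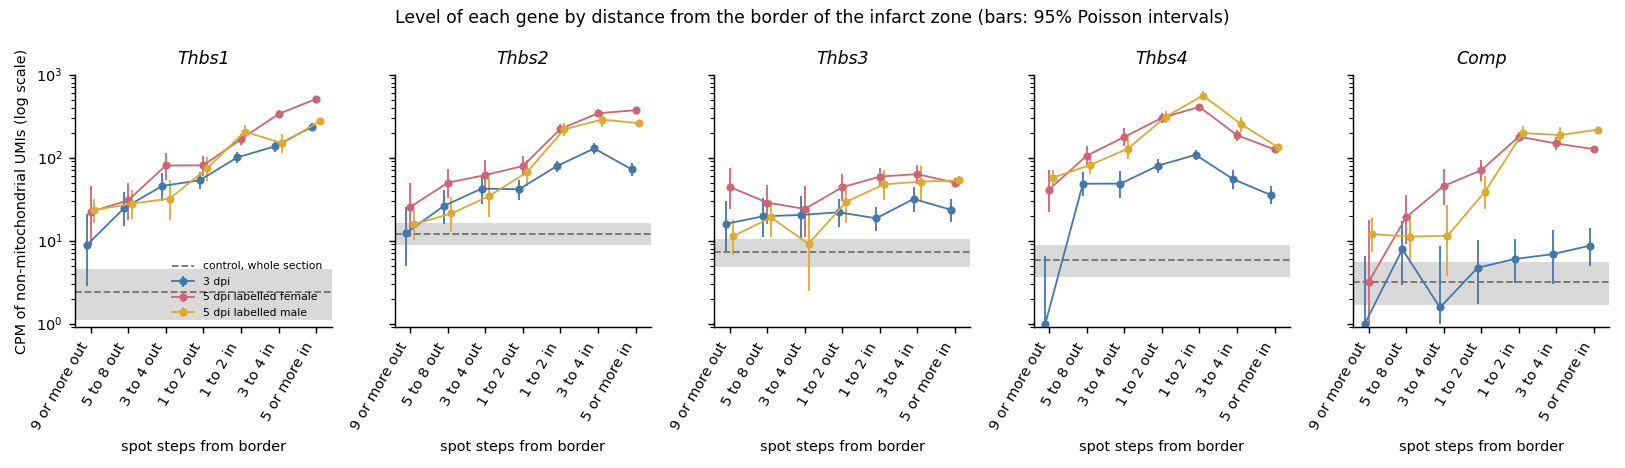
Level of each gene (CPM, log axis) by spot steps outside ("out") or inside ("in") the border of the infarct zone, with 95% Poisson bars and the control as dashed line and grey band; a class with 0 UMIs is drawn at 1 CPM. Thbs4 peaked 1 to 2 steps inside the border in 3 of 3 sections, at 108, 408 and 559 CPM, while Thbs1 was highest at 5 or more steps.

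The share of cardiomyocyte RNA in a spot, relative to the 90th percentile of its section, is the measure that set the IZ and entered the choice of members, so its values give the levels in finer classes and no second line of support. Where that share was under 0.1, Thbs1 was at 226 CPM at 3 dpi, 489 CPM in 5F and 269 CPM in 5M, and Thbs4 at 27.1, 95.2 and 117 CPM. At a relative share of 0.25 to 0.5, Thbs1 was at 91.4, 172 and 147 CPM and Thbs4 at 117, 368 and 396 CPM. Thbs4 was thus 3.39 to 4.31 times as high in spots with some cardiomyocyte RNA as in spots nearly free of it, and Thbs1 was lower there in each section. In 5F the peak of Thbs4 lay 1 class lower, at 425 CPM for a share of 0.1 to 0.25, which also held the peak of Comp, 246.5 CPM.

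The make-up of the family's own UMIs moved with the zones. Thbs4 gave 31.4%, 41.2% and 49.1% of the UMIs of the 5 genes in RZ, 39.7%, 52.3% and 59.8% in BZ2 and 19.9%, 15.3% and 19.5% in IZ. Comp gave 2.09% of the family's UMIs in IZ at 3 dpi (exact Clopper-Pearson interval 1.46% to 2.88%), and 11.9% and 22.0% at 5 dpi. In the control Thbs2 gave 39.1% (30.2% to 48.7%).

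**Figure D3:**
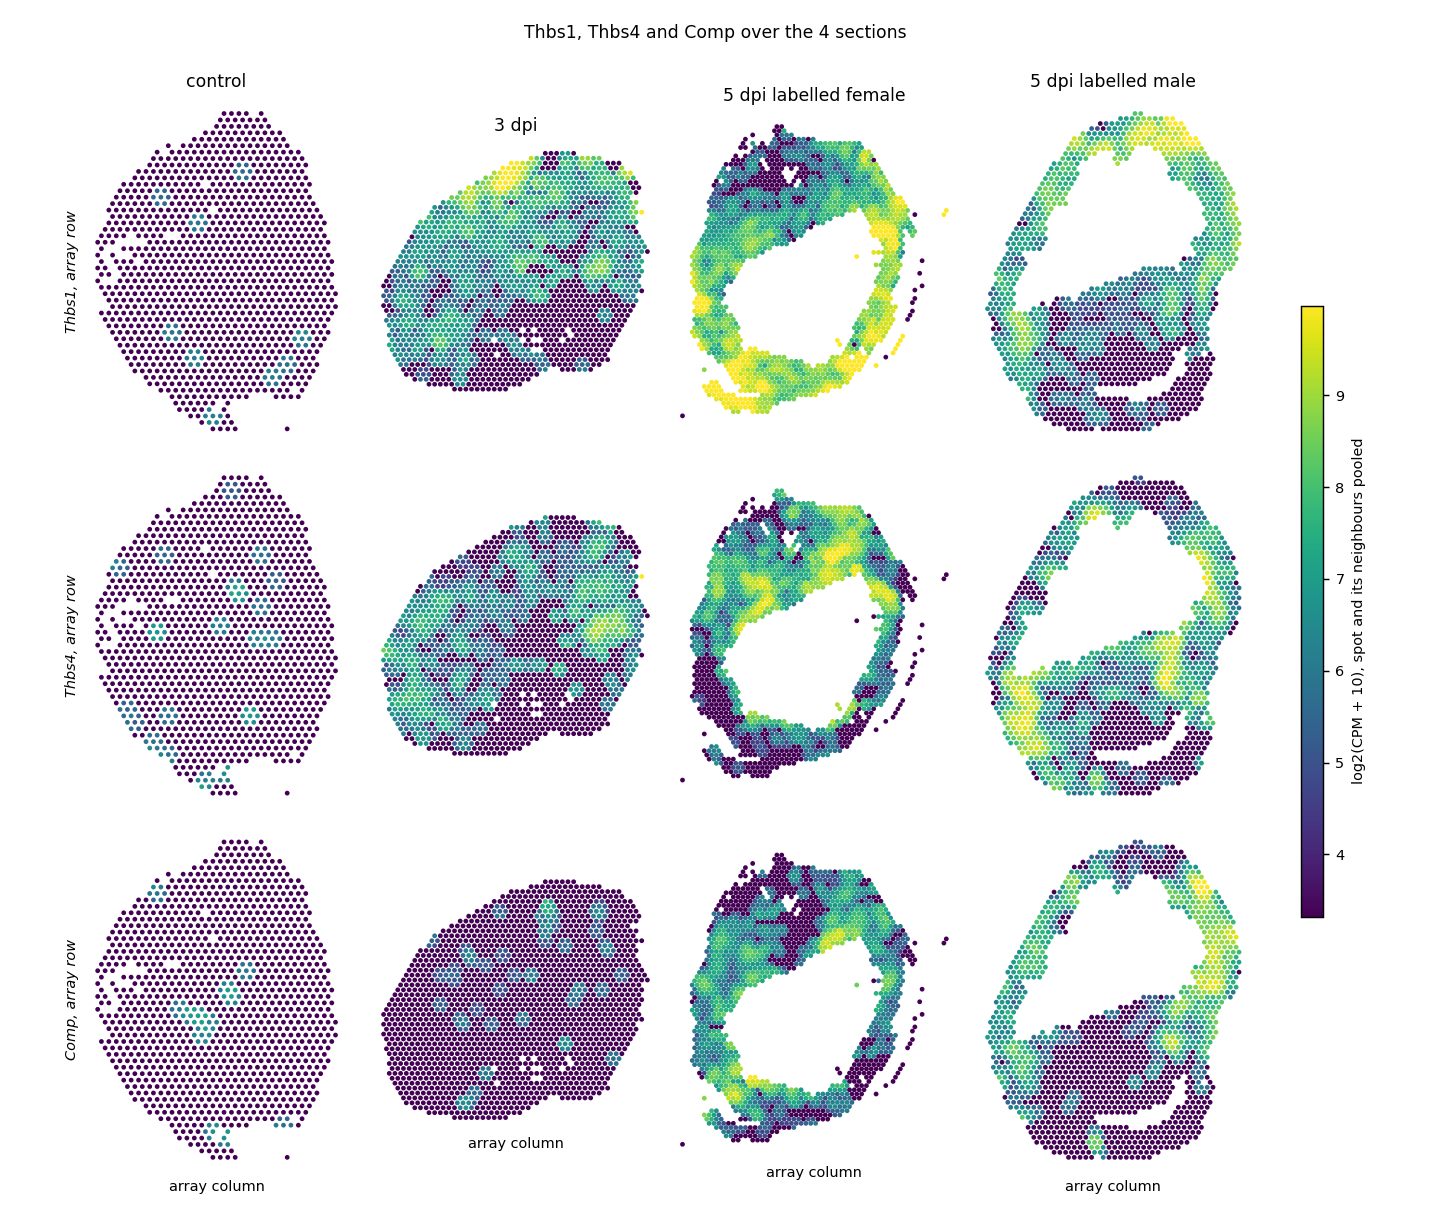
Thbs1, Thbs4 and Comp over the 4 sections at their array positions (row and column), as log2(CPM + 10) with each spot pooled with its neighbours; the top colour takes in all higher values. Thbs1 was high over much of the infarct, Thbs4 along its boundary, and Comp was sparse in the control and at 3 dpi.

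Whether the members went with fibroblast or macrophage RNA was asked inside the IZ, by a split that used neither the members nor cardiomyocyte genes. The 294, 354 and 228 IZ spots with the highest ratio of fibroblast-list to macrophage-list UMIs (collagen-rich) were set against the 294, 353 and 228 with the lowest (macrophage-rich), at 3 dpi and in 5F and 5M. The fibroblast list was at 14178 and 8885, 25710 and 18001, and 23507 and 16600 CPM in that order. Of its 7 genes, 4 passed as higher. The macrophage list was at 3973 and 10884, 6148 and 16216, and 4934 and 16783 CPM, and all its 7 genes passed as lower. Macrophage RNA thus differed more, and more fibroblast RNA and less macrophage RNA cannot be told apart here. Thbs2, Thbs3, Thbs4 and Comp rose in collagen-rich spots and were higher in 3 of 3 sections, so 4 of the 5 members passed, against 12.2% of 10198 genes tested. The replicates of this and the later tests are the hearts, 3 with an infarct, and each section entered as a block.

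Thbs4 was at 98.6 CPM in collagen-rich and 39.4 CPM in macrophage-rich spots at 3 dpi, at 290 and 66.8 CPM in 5F, and at 250.5 and 71.9 CPM in 5M. The collagen-rich spots were higher in each section, with a log2 fold change of 1.85 (SE 0.14, Benjamini-Hochberg adjusted p = 1.00e-05 in the quasi-likelihood test of edgeR). Thbs2 was at 124 and 66.1 CPM at 3 dpi, 458 and 250 CPM in 5F and 305.5 and 202 CPM in 5M. Its sections lay close together, with a log2 fold change of 0.82 (SE 0.10, edgeR adjusted p = 0.000139). Comp was at 11.2 and 3.81 CPM, 196 and 82.5 CPM, and 211 and 183 CPM, so 5M had the smallest difference. The log2 fold change of Comp was 0.80 (SE 0.19, edgeR adjusted p = 0.0107), and without 5F it was 0.41 (adjusted p = 0.283). Thbs3, at 25.2 and 15.9 CPM, 64.1 and 38.4 CPM, and 56.9 and 44.9 CPM, changed by 0.62 (SE 0.14, edgeR adjusted p = 0.00861), and by 0.49 (adjusted p = 0.166) without that section. The call of Thbs3 was also lost with DESeq2 (0.61, adjusted p = 0.222), and that of Comp when all IZ spots were split at the median (0.45, edgeR adjusted p = 0.0543).

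Thbs1 went in opposite directions at the 2 time points, a difference that was not tested. It was at 131 CPM in collagen-rich and 210 CPM in macrophage-rich spots at 3 dpi, but at 580 and 337 CPM and at 390.5 and 149 CPM in the 5 dpi sections. Over the 3 sections its log2 fold change was 0.57 (SE 0.27, edgeR adjusted p = 0.157), without the 3 dpi section it was 1.04 (adjusted p = 2.64e-05) and without 5M 0.18 (adjusted p = 0.663). With collagens left out of the fibroblast list it was 0.17 (edgeR adjusted p = 0.520). The erythroid list turned between time points in the same way, though 0 of its 4 genes passed. It was at 1961 CPM in collagen-rich and 5996 CPM in macrophage-rich spots at 3 dpi, 32827 and 14143 CPM in 5F, and 16498 and 9128 CPM in 5M. The part of blood RNA in the Thbs1 values was not tested.

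The amount of cardiomyocyte RNA moved with this split. Its median share was 2.87% of UMIs in collagen-rich and 1.17% in macrophage-rich spots at 3 dpi, 0.561% and 0.111% in 5F, and 1.12% and 0.113% in 5M. When the split was made within 5 bins of the cardiomyocyte share, an alternative added after the data were seen, all 5 members passed the test, against 4.47% of 10233 genes called higher and 6.68% lower. Thbs2 then had a log2 fold change of 1.01, Thbs1 0.64 (2 of 3 sections, with a log2 ratio of -0.48 at 3 dpi), Comp 0.61 and Thbs3 0.57. That of Thbs4 was 0.68 (SE 0.14, edgeR adjusted p = 0.00203), against 1.85 without the bins. By section the binned log2 ratios of Thbs4 were 0.85 at 3 dpi, 1.19 in 5F and 0.12 in 5M, where it was at 188 CPM in collagen-rich and 173 CPM in macrophage-rich spots. The bins did not fully level cardiomyocyte RNA. Its summed list was at 21600 and 18228 CPM at 3 dpi, 8131 and 4906 CPM in 5F, and 9484 and 8322 CPM in 5M. The part of this remainder was not tested. Over all alternatives the adjusted p of Thbs4 was at most 0.0271, and without the section as a block it was the 1 member that passed. The smooth muscle list also moved with the split, with 4 of its 6 genes past the test, and so did the neutrophil list, summed at 162 to 198 CPM in collagen-rich and 262 to 384 CPM in macrophage-rich spots, the 1 tested mesothelial gene (log2 1.54), and the platelet list, at 390 to 464 CPM in collagen-rich and 1145 to 1602 CPM in macrophage-rich spots. The platelet sum is nearly all Pf4, which macrophages can also express. Mitochondrial genes took 12.1% of UMIs in collagen-rich and 6.59% in macrophage-rich spots at 3 dpi, 7.39% and 2.59% in 5F and 5.29% and 1.23% in 5M, and at 3 dpi the median depth was 6961.5 and 4832.5 UMIs. The part of these cells, of depth and of the mitochondrial share in the result was not tested.

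**Figure D4:**
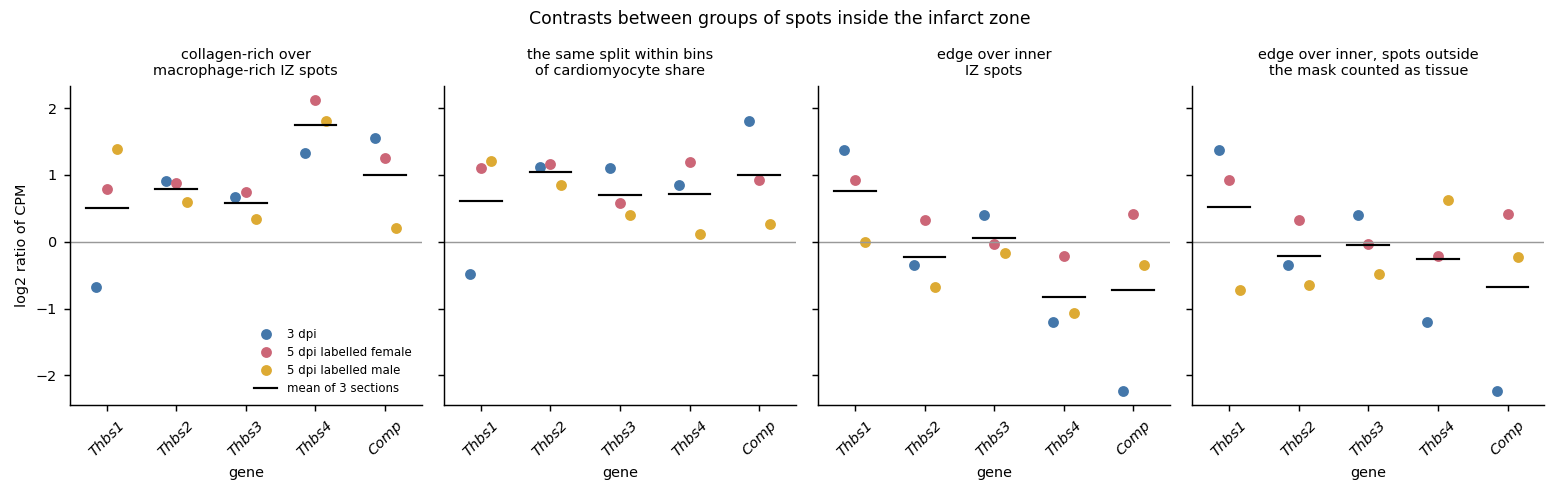
Log2 ratio of CPM between groups of IZ spots for each gene, 1 point per infarcted section, with a bar at the mean of 3 sections. In the first pair of panels Thbs2, Thbs3, Thbs4 and Comp lie above 0 in each section; in the second pair Thbs4 lies below 0 in 3 of 3 sections only while unmarked spots are treated as empty.

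Position in the wall was examined by comparing IZ spots 1 to 2 steps from the edge of the marked tissue, which takes in the outer surface and any cavity left off the marking, with IZ spots 4 or more steps from it. Thbs1 was at 324 CPM at the edge and 125 CPM inside at 3 dpi, 517 and 272 CPM in 5F, and 255 and 256 CPM in 5M. Thbs4 was at 33.3 and 76.7 CPM, 161 and 186 CPM, and 163 and 340 CPM in the same order. Thbs1 was higher at the edge, by a log2 of 0.71 (SE 0.17, edgeR adjusted p = 0.0462, 2 of 3 sections), and Thbs4 was lower there, by -0.75 (SE 0.16, edgeR adjusted p = 0.0244, 3 of 3 sections). Thus 1 member passed upward against 0.573% of 10992 genes, and 1 downward against 0.755%. Thbs2 at -0.24, Thbs3 at -0.06 and Comp at -0.06 did not pass (edgeR adjusted p from 0.672 to 0.960), but without 5F Thbs2 was at -0.62 and passed (adjusted p = 0.0183) and Comp was at -0.48.

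These edge calls did not hold when the 623 unmarked spots of 5M were counted as tissue, also an alternative added later. The edgeR test then called 0 genes, with 282 at an unadjusted p under 0.05, and Thbs4 in that section turned from a log2 of -1.06 to 0.63. Without that section Thbs1 was at 1.07 (edgeR adjusted p = 8.77e-06) and Thbs4 at -0.55 (adjusted p = 0.190), and without the 3 dpi section Thbs1 was at 0.47 (adjusted p = 0.140). With a lower zone limit or with step 1 against 3 or more steps neither gene passed (edgeR adjusted p from 0.111 to 0.564). Edge spots also held less cardiomyocyte RNA than inner ones, with median shares of 1.32% and 2.33% of UMIs at 3 dpi, 0.170% and 0.246% in 5F and 0.239% and 0.839% in 5M. In an alternative added after the data were seen, with equal numbers of both kinds of spot in each of 5 bins of that share, neither gene passed: Thbs1 was at 0.66 (edgeR adjusted p = 0.175) and Thbs4 at -0.36 (adjusted p = 0.671). That fit used fewer spots and called 0.134% of 8208 genes higher and 0.0244% lower. Of the 12 alternatives run, 8 lost the call of Thbs1, DESeq2 among them (adjusted p = 0.0663), and 6 lost that of Thbs4. Edge spots at 3 dpi had a median of 2761 UMIs against 6634 inside. Neutrophil genes, 3 of 4, rose at the edge as well, with sums of 250 to 702 CPM there and 114 to 162 CPM inside. So did the 2 tested of 4 mesothelial genes (17.5 to 117 CPM and 3.58 to 18.9 CPM). Of the platelet list 2 of 3 tested genes rose, Ppbp by 2.74 and Pf4 by 0.76, and its sum was at 1964 CPM at the edge and 637 CPM inside at 3 dpi, 759 and 730.0 CPM in 5F, and 742 and 410 CPM in 5M. The erythroid list had 0 of 4 genes called. Its sum was at 8294 and 2469 CPM at 3 dpi, 25542 and 21777 CPM in 5F, and 8195 and 14022 CPM in 5M. The part of these cells in the Thbs1 value was not tested.

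Outside the infarct, spots richest in smooth muscle RNA were compared with the poorer spots to ask whether the members went with vessel walls. Of the 5 members, Thbs4 alone had enough counts to be tested. It was at 11.8 CPM in rich and 5.33 CPM in poor spots of the control, 12.4 and 36.6 CPM in RZ at 3 dpi, 265 and 61.4 CPM in 5F and 60.4 and 55.8 CPM in 5M. The 3 dpi section pointed the other way, but its 38 rich spots held 1 UMI of Thbs4, and those of the control held 4. The log2 fold change of 0.86 (SE 0.31) did not pass (edgeR adjusted p = 0.515). It rested on 5F, where the rich spots were 20 with 24 UMIs of Thbs4, and without that section it was 0.07. The test called 0.481% of 4158 genes higher and 0.0241% lower; the smooth muscle genes themselves set the split.

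Over patches of IZ, blocks of 6 by 12 array positions with at least 15 IZ spots, the members followed different genes. There were 27 patches at 3 dpi, 34 in 5F and 20 in 5M; patches of a section share its library and depth, so the correlations of log2(CPM + 10) are descriptions, averaged over the 3 sections. Among 5701 genes, those most like Thbs1 included the fibronectin receptor subunit Itga5 (mean r = 0.73), the metalloproteinase inhibitor Timp1 (0.73) and Tagln2 (0.69). Thbs1 was also high where the summed neutrophil list (0.59) and platelet list (0.59) were high and low where the cardiomyocyte list was high (-0.59). Thbs2 was most like the fibrillar collagen gene Col5a1 (0.66), Rcn3 (0.63), Col1a2 (0.62), Col1a1 (0.62) and Csrp2 (0.61), and had r = 0.69 with the fibroblast list, which holds Col1a1 and Col1a2.

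Thbs4 was most like Cilp, a cartilage matrix gene expressed by stressed cardiac fibroblasts (0.80). The next were Fabp3, a fatty acid carrier (0.77), Perp (0.77), the natriuretic peptide gene Nppa (0.76) and the myosin gene Myh6 (0.76), and its r with the cardiomyocyte list, which holds Myh6, was 0.77. The members were chosen with their relation to cardiomyocyte RNA known, so the values with that list and its genes restate the choice. Comp was most like Bgn, the proteoglycan biglycan (0.67), Plac9a (0.61), Crip1 (0.59), the matricellular gene Ccn5 (0.58) and Id3 (0.58). Thbs3 had the weakest matches, Cd200 (0.54), the elastic fibre gene Fbln5 (0.52), Crip1 (0.52), Dennd1a (0.48) and Tmed4 (0.47).

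Between the members themselves, Thbs3 and Comp had the highest mean r of the 10 pairs (0.55, and 0.41, 0.72 and 0.51 in the 3 sections), but with blocks of 8 by 16 positions they were at 0.44 and Thbs2 and Thbs3 came first at 0.59. Thbs4 and Comp had a mean r of 0.35, with -0.02 at 3 dpi, where Comp had 36 UMIs in the whole IZ, and 0.57 and 0.49 at 5 dpi. Thbs1 and Thbs4 were the least alike, at -0.37 and below 0 in 3 of 3 sections. The trimeric pair Thbs1 and Thbs2 had a mean r of -0.07. Thbs2 and Thbs4 had a mean r of 0.11, with 0.33 at 3 dpi, -0.12 in 5F and 0.11 in 5M.

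**Figure D5:**
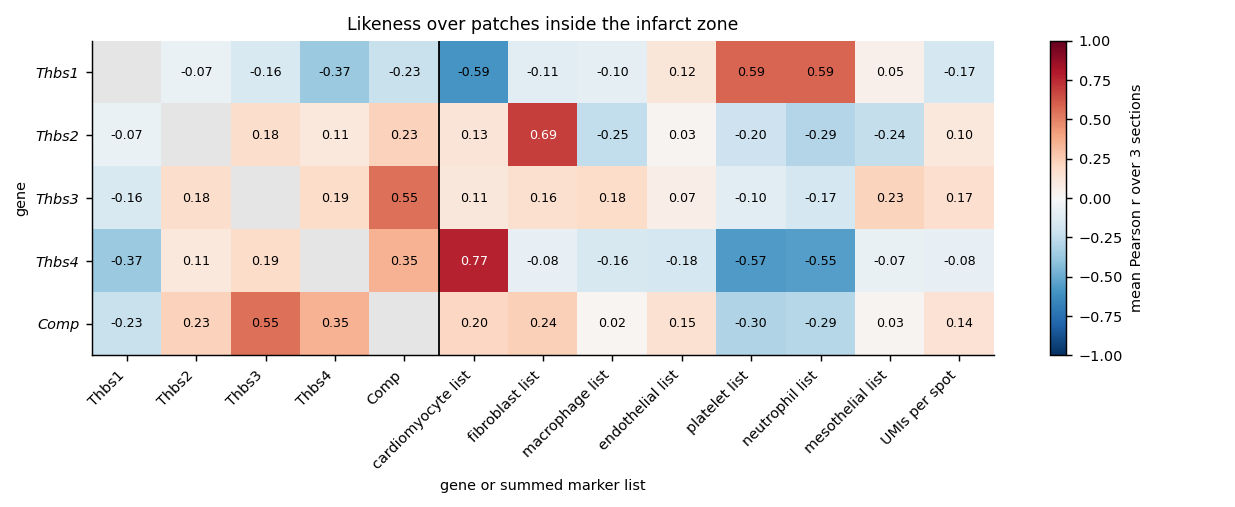
Mean Pearson r over 3 sections between each gene (rows) and the other members, summed marker lists and UMIs per spot (columns), over 27, 34 and 20 patches of IZ. Thbs4 went with the cardiomyocyte list (0.77), a relation that was part of the choice of members, Thbs2 with the fibroblast list (0.69), Thbs1 with the platelet and neutrophil lists (0.59 each) and Comp with Thbs3 (0.55).

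The receptors and partners of thrombospondins were examined between IZ and RZ with the same edgeR test, which called 22.4% of 11438 genes higher and 22.7% lower in IZ. Its TMM scaling moved log2 fold changes by -0.42 on average relative to CPM, and the median over all genes tested was 0.07. The cell makeup moved with this contrast. All 7 macrophage genes rose in IZ (median log2 fold change 1.96), as did 3 of 4 neutrophil genes (2.31), 2 of 3 tested platelet genes (1.83), 5 of 7 fibroblast genes (1.25) and 1 of 2 tested mesothelial genes, while 3 of 6 endothelial and 4 of 4 erythroid genes fell. Of 6 smooth muscle genes 3 rose and 1 fell (0.93). The summed cardiomyocyte list was at 81801 to 98085 CPM in RZ and 6719 to 20457 CPM in IZ, and mitochondrial genes took 27.5% to 41.3% of UMIs in RZ and 3.30% to 9.92% in IZ. The part of these cells in the lists that follow was not tested. Of 13 receptor and partner genes 9 rose and 2 fell in IZ, with a median log2 fold change of 1.16. The syndecan Sdc1, a heparan sulphate proteoglycan that binds thrombospondins, was at 11.3 CPM in RZ and 98.4 CPM in IZ at 3 dpi, 28.7 and 151 CPM in 5F, and 14.9 and 131 CPM in 5M (log2 2.47, edgeR adjusted p = 7.08e-07). The integrin subunit Itgb3 rose by 2.23 and Sdc4 by 1.57. Cd36, the receptor of the type 1 repeats that is also a fatty acid transporter of cardiomyocytes and endothelium, fell from 872 to 374, 784 to 208 and 737 to 193 CPM (log2 -2.11, edgeR adjusted p = 2.07e-06).

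Of 11 TGF-beta genes, 9 rose in IZ and none fell, with a median of 0.94, below that of the macrophage list, among them the latent TGF-beta binding protein Ltbp2 at 2.84, the ligand Tgfb3 at 1.86 and the target Pmepa1 at 1.27. In the endoplasmic reticulum folding list of Atf6 and its targets, 9 of 11 rose and 1, the transcription factor gene Atf6 itself, fell (-0.88; median of the list 0.92), with Creld2 at 1.68, Manf at 1.34, Pdia6 at 1.31 and Sdf2l1 at 1.19. The tendon and cartilage matrix list had 8 of its 15 genes tested, of which 6 rose and none fell (median 1.07), led by Col11a1 at 4.22, Fmod at 3.67, Col12a1 at 2.85 and Prg4 at 1.09. Among 6 Adamts proteases, a family of matrix-cleaving enzymes, Adamts4 (1.91) and Adamts12 (1.80) rose and the median of 0.07 equalled that of all genes. The values are log2 fold changes, and each gene named passed the threshold of 0.05 on the edgeR adjusted p and, Atf6 apart, was higher in 3 of 3 sections.

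Between collagen-rich and macrophage-rich IZ spots the lists did not move as one, with a median over all genes of 0.02 and 12.2% called higher and 10.2% lower. Of the tendon and cartilage matrix genes tested, 7 of 9 rose in collagen-rich spots (median 1.21): Cilp by 2.07, the tendon transcription factor Scx by 1.81, the proteoglycan gene Acan by 1.72 and Fmod by 1.36 were the leading ones. Of 11 TGF-beta genes 7 rose (median 0.46), with Tgfb2 at 0.88, Ccn2 at 0.83, Ltbp2 at 0.68 and Ltbp1 at 0.67. The receptor list had 4 of 13 higher, among them Cacna2d1, a calcium channel subunit that binds thrombospondins, at 1.01, Itga5 at 0.46 and Sdc1 at 0.39, and Cd47 lower at -0.36 (median 0.07). Of the folding list 1 of 11 passed, Sdf2l1 at -0.69, and the median of the 6 Adamts proteases was 0.14.

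Cilp shared the border position of Thbs4 at the zone limit used here. It was at 8.02 CPM in the control, at 83.6 CPM in RZ, 161 in BZ2 and 94.6 CPM in IZ at 3 dpi, at 136, 475 and 217 CPM in 5F and at 84.2, 331 and 196 CPM in 5M. Its BZ2 value was the highest of these in each section, as for Thbs4. The zone levels of Cilp were taken at this limit only, and the highest zone of Thbs4 changed with a higher one. At the edge of the IZ, Cilp was lower than inside by a log2 of -1.07 (edgeR adjusted p = 0.000669, 3 of 3 sections), the one gene of the 5 lists to pass there, where the median over all genes was -0.005. With the unmarked spots counted as tissue no gene passed.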

How the data were processed

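Visium data of 4 sections were analysed. Per the file headers and the study's methods, the deposited values are raw UMI counts of each gene in each spot, which the authors made with Space Ranger 1.3.1 from an Ensembl-based mouse reference with GFP added (the labels name mm10) and picked spots under tissue by hand. No column of another sample was present. Spots were kept with at least 500 UMIs, 250 genes and at most 50% mitochondrial UMIs. CPM were taken over UMIs outside 13 mitochondrial genes, with exact 95% Poisson intervals.

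Sums of UMIs per section and group of spots were scaled by TMM, filtered on low counts by filterByExpr and compared by quasi-likelihood in edgeR 4.0.16 (R 4.3.3, with limma 3.58.1). The section was a block, and p-values were adjusted over all genes tested after Benjamini and Hochberg (threshold 0.05). Sections, not spots, are the replicates. The contrasts were IZ against RZ (for genes outside the family), collagen-rich against macrophage-rich IZ spots, edge against inner IZ spots, and the top 10% against the lower 50% of RZ spots, and of spots of the control, by smooth muscle share. Scripts were tested on simulated data. Python 3.11.15, NumPy 2.4.6, SciPy 1.17.1 and pandas 2.3.3 gave the other values, and DESeq2 1.42.0 was an alternative.

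The members and the gene lists were chosen with earlier results of these data known. Besides members, the text names the 5 genes most like each member over patches (at least 20 CPM in each IZ) and, per list and test, up to 4 genes with the largest log2 fold change past the threshold in 1 direction in all sections. Cilp was followed further after its values were seen. Alternatives covered scaling, tool, filters, zone limits, splits, the block and each section left out. Some genes that the naming rule picked are not reported here.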

Additional observations from a re-analysis of the deposited data

Results flagged for a closer look

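Thbs1 in collagen-rich over macrophage-rich IZ spots was picked out because the time points went in opposite directions. The log2 ratio of CPM was -0.683 at 3 dpi and 0.78 and 1.39 in the 5 dpi sections. The difference between time points was not tested, since 3 dpi has 1 section. Within bins of cardiomyocyte share the ratios were -0.48, 1.10 and 1.21.

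Thbs3 at the edge over the inner IZ had a log2 ratio of 0.397 at 3 dpi, where the edge rests on 16 UMIs, and of -0.04 and -0.17 at 5 dpi. This difference was not tested either.

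The 623 spots of 5M, the 5 dpi section labelled male, that are not marked as tissue held a signal above the control for each member. Pooled over these spots, which had a median of 2539 UMIs, Thbs1 was at 513 CPM against 2.41 CPM in the control, Thbs2 at 201 against 12.0 CPM and Thbs3 at 48.9 against 7.22 CPM. Thbs4 was at 118 against 5.88 CPM and Comp at 58.3 against 3.21 CPM. Thbs1 was thus above the 257 CPM of the marked IZ of that section, and Thbs4 and Comp were below their 188 and 212 CPM.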

How the results depend on the processing

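Counts of members between whole sections, in IZ over RZ and in the IZ of 5 dpi over 3 dpi stayed within 1.5 times their values under the denominators, spot filters, zone limits and left-out sections tried for each, but not always with the same members: Thbs4 left the count of members 2-fold higher in IZ with a lower zone limit and with cardiomyocyte genes left out of the denominator, and Comp entered it at either other limit and without the 3 dpi section. The count of 2 for BZ2 over RZ was 0 with a lower zone limit, 1 with a higher one and 2 to 3 with a section left out, and that of 2 for RZ over the control was 1 with a higher limit and 2 to 3 with a section left out. The test results moved more. For collagen-rich against macrophage-rich spots 2276 genes were called, against 1037 by DESeq2, 721 with no section block, 1141 with the split made within bins of cardiomyocyte share and 1392 to 2085 with a section left out; 4 members were called, against 1 with no section block (Thbs4) and 2 to 5 with a section left out. For the edge 146 genes were called, against 64 by DESeq2, 307 without the low-count filter, 2 with no section block, 25 for step 1 against 3 or more, 39 with a lower zone limit, 0 with unmarked spots as tissue, 13 within bins of cardiomyocyte share and 111 to 302 with a section left out. There 2 members were called, against 1 by DESeq2, 1 with all spots under tissue, 0 with no section block, 0 for step 1 against 3 or more, 0 with a lower zone limit, 0 with unmarked spots as tissue, 0 within bins of cardiomyocyte share (13 genes called, 547 at an unadjusted p under 0.05, by edgeR) and 1 to 3 with a section left out (Thbs2 among them without 5F). For smooth muscle 21 genes were called, against 11 by DESeq2, 32 without the filter, 6 with no section block, 11 for the top 20% and 9 to 16 with a section left out. With 8 by 16 blocks 4 member pairs, not 2, had r above 0 in every section. Thbs1 in collagen-rich spots was called under 5 of 12 alternatives (adjusted p from 2.64e-05 to 0.816, the highest by DESeq2). The causes were not tested. No member's called direction turned. No paired analysis by replicate number was possible because the labels give none; the section block pairs the zones of a heart, and leaving it out is the fit with no section block above. With 1 control and 1 section at 3 dpi, differences between time points carry no error between hearts. Few UMIs limit Comp before 5 dpi and Thbs3 outside the IZ.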
